A study of Mus musculus with 89 samples.

Results

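Fecal pellets taken 1 wk and 2 wk after surgery (day 7 and day 14) were compared with pellets that the same mice gave before injury (day 0). Members were all columns of the read count table named for day 7 or day 14 whose animal number also had a pre-injury column, except the day 14 column of animal 160, which held fewer than 10000 reads. There were 13 at day 7 and 12 at day 14, or 25 of the 89 columns analysed, and 13 pre-injury columns served as their reference. The mice were young adult male C57BL/6J, the common inbred laboratory strain. Before surgery every mouse had its bowel flushed with polyethylene glycol and was then inoculated with pooled cecal contents of donor mice, and bedding was mixed between cages. The series holds 6 sham mice, which had the craniotomy without the impact, and 7 mice with controlled cortical impact (CCI), a contusion of the exposed cortex. The column names give an animal number and a time but no injury group, so sham and CCI mice were pooled. Every change below is therefore a change over time after either operation. Surgery, injury, age, handling and the settling of the transferred microbiota cannot be told apart, since no unoperated mice were sampled. Mice were co-housed by injury, so the animals of a cage may not be independent.

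The method reads the 16s rRNA gene, which all bacteria carry and whose variable stretches differ between taxa. Each distinct sequence (a variant) is counted, and counts are read as a share of the sample's reads, so a rise of one taxon forces a fall of the others and no absolute number of bacteria is known. In the mouse colon most reads fall to Firmicutes, which include the fiber-fermenting, often butyrate-producing Lachnospiraceae and Ruminococcaceae, and to Bacteroidota, chiefly the Muribaculaceae, which degrade plant and host glycans. The small remainder, here mostly Actinobacteriota, also holds mucin degraders such as Akkermansia. Oxygen-tolerant bacteria are usually rare in a healthy colon, and Staphylococcus and Enterococcus, described below, are counted within Firmicutes. The column totals of day 0, 7 and 14 lay between 13687 and 193669 reads, with a median of 78628. A count of 3 reads, the limit that a count of 0 allows, corresponds to between 0.00155% and 0.0219% of a column, which covers counting error only. The log2 of total reads changed by -0.26 ± 0.86 (SD, n = 13) at day 7 and by -0.27 ± 0.71 (SD, n = 12) at day 14 (p = 0.300 and 0.209, exact permutation of signs within animals, two-sided). Of 4065 variants, 434 were named in the taxonomy table, and these held at least 90.8% of the reads of each of these columns.

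At 1 wk the balance of the major phyla had moved. Firmicutes held less of the reads than before injury, and Bacteroidota and the minor phylum Proteobacteria held more. Firmicutes and Bacteroidota averaged 50.6% and 42.2% of reads over days 0, 7 and 14, so their opposite changes are not independent results. Of the 5 phyla, 3 passed at day 7 (60%), 2 of them higher (40%), and 1 at day 14 (20%), tested by exact permutation of the signs of the changes, two-sided, with Benjamini-Hochberg adjustment over the 10 tests of both days.

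Before injury Firmicutes held between 42.8% and 64.0% of reads (median 55.9%), at day 7 between 34.8% and 56.2% (median 46.5%), and at day 14 between 40.7% and 64.0% (median 49.4%). The ranges overlapped, but within animals Firmicutes was lower at day 7 in 11 of 13 mice, the exceptions being animals 153 and 161. Its mean change was -8.98 percentage points ± 10.4 (SD, n = 13; p = 0.0127, adjusted p = 0.0427). It ran from -21.1 points in animal 149 to 13.3 points in animal 161. At day 14 the mean change was -4.28 points ± 11.6 (SD, n = 12; adjusted p = 0.367), with 5 mice above and 7 below their own pre-injury share.

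Bacteroidota ranged from 29.8% to 45.9% before injury (median 39.3%), from 36.2% to 60.04% at day 7 (median 45.2%) and from 31.3% to 55.9% at day 14 (median 40.9%). It rose by 7.48 points ± 9.36 at day 7 (SD, n = 13; higher in 9 mice; p = 0.0171, adjusted p = 0.0427). At 2 wk it stood 4.47 points ± 9.63 above the pre-injury share (SD, n = 12; higher in 7 mice; adjusted p = 0.269).

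Proteobacteria, here almost entirely Parasutterella, a colonic bacterium that uses little sugar, was the one phylum past the threshold at both times. Its reads ran from 0.0112% to 0.392% before injury (median 0.211%), from 0.0563% to 1.09% at day 7 (median 0.358%) and from 0.130% to 0.732% at day 14 (median 0.278%). The rise was 0.187 points ± 0.266 at day 7 (SD, n = 13; higher in 9 mice; adjusted p = 0.0427). The rise at day 14 was 0.0971 points ± 0.103 (SD, n = 12; higher in 11 mice; adjusted p = 0.0427). Tested among the families as Sutterellaceae, nearly the same reads did not pass, with edgeR adjusted p of 0.0639 at day 7 and 0.126 at day 14 and exact-test adjusted p of 0.0969 and 0.0674. The family passed at day 7 with TMM factors, in DESeq2, with the columns of all 7 days and without animal 161.

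Actinobacteriota and Verrucomicrobiota did not pass the test at either time. Actinobacteriota averaged 4.24% ± 3.04 before injury, 5.4% ± 4.00 at day 7 and 4.56% ± 3.84 at day 14 (SD). For Verrucomicrobiota the means were 1.29% ± 2.84, 0.816% ± 1.45 and 0.554% ± 0.842. Animal 151 held 10.7% before injury, and without it the means were 0.509% ± 0.356, 0.460% ± 0.713 and 0.554% ± 0.884. Day 14 was set directly against day 7 for the 5 phyla, and the smallest adjusted p was 0.498, for Firmicutes, at 4.38 points ± 8.46 (SD, n = 12) above day 7. The 4 phylum calls had little to spare. On the scale of log2(percent + 0.01) the adjusted p of each was 0.0531, and 0 phyla were called when animal 149, 152, 155, 156, 158, 159, 160 or 162 was left out.

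**Figure D1:**
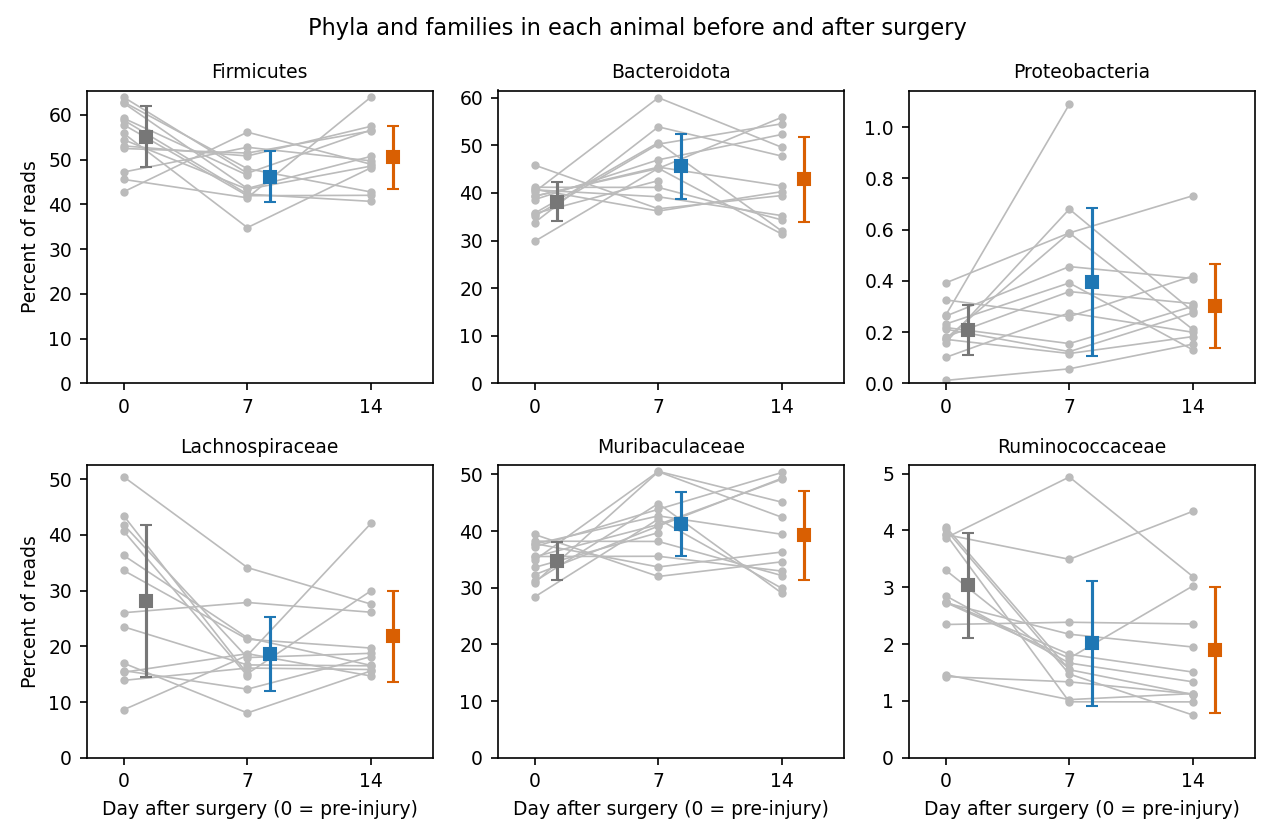
Percent of reads (vertical axis) of 3 phyla and 3 families at day 0, 7 and 14 (horizontal axis). Grey lines join the samples of 1 animal and squares with bars give the mean ± SD of 13, 13 and 12 animals. Most lines of Firmicutes and Ruminococcaceae fall from day 0 to day 7, while 9 of 13 lines of Bacteroidota rise.

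Below the phyla, read counts were summed by family and by genus and tested with edgeR's quasi-likelihood test with the animal as a block and Benjamini-Hochberg adjustment over all families or genera tested. At day 7, 1 of 23 families passed (4.35%), and at day 14, 2 of 23 (8.7%). The family that passed at both times was Ruminococcaceae, fiber and starch fermenters of the Firmicutes. It held 1.43% to 4.07% of reads before injury (median 2.85%), 0.986% to 4.94% at day 7 (median 1.67%) and 0.752% to 4.34% at day 14 (median 1.42%). It was lower in 11 of 13 mice at day 7, animals 155 and 161 being the exceptions, and in 9 of 12 at day 14. The log2 fold change was -0.71 ± 0.20 (SE, n = 13; edgeR adjusted p = 0.038) at day 7 and -0.82 ± 0.21 (SE, n = 12; edgeR adjusted p = 0.00768) at day 14. The call at day 14 was kept when any of the 13 animals was left out. It was lost without the animal as a block (edgeR adjusted p = 0.139) and by exact permutation of signs on percent of reads (adjusted p = 0.0749). The call at day 7 was kept in 5 of 13 such fits, and was lost without animal 149, 150, 152, 156, 158, 159, 160 or 162. It was also lost with no block (edgeR adjusted p = 0.111), with poscounts factors (edgeR adjusted p = 0.0618) and by the exact permutation (adjusted p = 0.0969).

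Lachnospiraceae, the largest Firmicutes family and a major source of short-chain fatty acids, fell short of the threshold. It held 8.64% to 50.4% of reads before injury (median 26.0%), 8.06% to 34.2% at day 7 (median 18%) and 14.7% to 42.1% at day 14 (median 18.5%). The mean change was -9.50 points ± 12.1 (SD, n = 13; lower in 9 mice; edgeR log2 fold change -0.55 ± 0.21, adjusted p = 0.0639) at day 7. The mean change at day 14 was -5.34 points ± 15.5 (SD, n = 12; lower in 8 mice; edgeR adjusted p = 0.381). Animal 151 went the other way, with 9.75 points more at day 7 and 33.4 points more at day 14. Without it, Lachnospiraceae and Oscillospiraceae joined Ruminococcaceae past the threshold at day 7, and 3 families were called. Both also passed at day 14 without it, when 4 families were called, and both passed at day 7 without animal 161, when Muribaculaceae passed too and 6 families were called. With the columns of all 7 days Lachnospiraceae passed at day 7.

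Oscillospiraceae, slow-growing fermenters related to Ruminococcaceae, averaged 3.50% ± 1.94 of reads before injury, 2.12% ± 1.25 at day 7 and 2.38% ± 1.62 at day 14 (SD). Their log2 fold change at day 7 was -0.76 ± 0.29 (SE, n = 13; lower in 9 mice; edgeR adjusted p = 0.0639). Muribaculaceae, the largest family of all, averaged 34.8% ± 3.35, 41.2% ± 5.64 and 39.2% ± 7.86. Their share was higher at day 7 in 10 of 13 mice, by 6.4 points ± 7.95 (SD; edgeR log2 fold change 0.24 ± 0.09, adjusted p = 0.0639). Of Bacteroidaceae, here the single variant of Bacteroides, the means were 3.36% ± 1.63, 4.44% ± 2.39 and 3.63% ± 1.71, and the edgeR adjusted p was 0.114 at day 7. An unadjusted edgeR p under 0.05 was reached by 8 families at day 7 (34.8%), 3 of them lower (13%) and 5 higher (21.7%), and by 5 families at day 14 (21.7%). The day 7 count depended on the scaling. With trimmed-mean (TMM) scaling 5 families passed, all higher (Muribaculaceae, Bacteroidaceae, Sutterellaceae, Monoglobaceae and UCG-010), while Ruminococcaceae stood at a log2 fold change of -0.54 with an edgeR adjusted p of 0.055. DESeq2 called those 5 families, Oscillospiraceae and Ruminococcaceae.

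Most genera called at 1 wk were lower than before injury. Of 51 genera tested, 5 passed at day 7 (9.8%), 4 of them lower (7.84%) and 1 higher (1.96%). Colidextribacter, Ruminococcaceae Incertae Sedis, Lachnospiraceae UCG-006 and Lachnoclostridium were lower, and Marvinbryantia was higher. All 5 belong to the Firmicutes families described above, so their reads are part of those family sums. At an unadjusted p under 0.05, 12 genera stood out at day 7 (23.5%), 9 lower (17.6%) and 3 higher (5.88%). At day 14 there were 9 (17.6%), 6 lower (11.8%) and 3 higher (5.88%), and between day 7 and day 14 there were 3 (5.88%), 2 of them lower (3.92%).

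Colidextribacter, a genus of the Oscillospiraceae, held 0.308% to 2.56% of reads before injury (median 0.964%) and 0.161% to 0.883% at day 7 (median 0.460%). It was lower at day 7 than before injury in 13 of 13 mice. The log2 fold change was -1.18 ± 0.28 (SE, n = 13; edgeR adjusted p = 0.0102), a fall to 0.44 times the pre-injury share. At day 14 the range was 0.199% to 1.89% (median 0.501%), lower than before injury in 10 of 12 mice (log2 fold change -0.98 ± 0.30, edgeR adjusted p = 0.0694). It passed at day 14 with poscounts factors, in DESeq2, with the columns of all 7 days, and without animal 151 or 153. Of its 14 variants 10 had enough reads for a test, and 8 of the 10 had a log2 fold change below 0 at day 7. Over all variants 240 of 371 did. Such counts, here and for the genera below, come from the reads that gave the call and are no separate support.

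Ruminococcaceae Incertae Sedis, a group of Ruminococcaceae without a settled genus, held 0.304% to 2.11% before injury (median 0.723%) and 0.190% to 0.688% at day 7 (median 0.395%). It too was lower at day 7 in 13 of 13 mice. The SD between animals fell along with the share, from 0.719 points to 0.144 points, and the spread was not tested. The log2 fold change was -1.45 ± 0.36 (SE, n = 13; edgeR adjusted p = 0.0102), or 0.365 times the pre-injury share. All 6 of its tested variants had a log2 fold change below 0, against 240 of 371 over all variants at day 7. At day 14 its range was 0.207% to 2.19% (median 0.417%), lower in 8 of 12 mice (log2 fold change -1.02 ± 0.39, edgeR adjusted p = 0.184), and it passed there in DESeq2 and without animal 151. The calls of this group and of Colidextribacter at day 7 were kept in all 13 fits that left out 1 animal. Without the animal as a block Colidextribacter had an edgeR adjusted p of 0.0513.

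Lachnospiraceae UCG-006, an uncultured lineage, held 0.187% to 3.14% before injury (median 1.32%) and 0.0514% to 1.02% at day 7 (median 0.596%), and was lower in 12 of 13 mice (log2 fold change -1.24 ± 0.35, SE, n = 13; edgeR adjusted p = 0.0273). One variant held 89.7% of its reads over days 0, 7 and 14. Lachnoclostridium, a genus of fermenters in Lachnospiraceae, held 0.484% to 5.26% before injury (median 2.44%) and 0.205% to 2.90% at day 7 (median 1.29%). It was lower in 11 of 13 mice (log2 fold change -1.04 ± 0.34, SE, n = 13; edgeR adjusted p = 0.0493). This was the least secure of the calls: it was kept only without animal 151, in 1 of 13 such fits, and lost in the other 12. The call of Lachnospiraceae UCG-006 was lost without animal 149, 152, 154 or 156. Both calls also depended on the scaling, with edgeR adjusted p of 0.0873 and 0.164 under TMM and 0.0567 and 0.0679 under poscounts factors for Lachnospiraceae UCG-006 and Lachnoclostridium. Without the animal as a block these were 0.0513 and 0.0762, and with no filter on low counts Lachnoclostridium stood at 0.0503. Both were called at day 7 in DESeq2, with the columns of all 7 days and by exact permutation of signs on percent of reads. At day 14 the log2 fold changes were -0.91 ± 0.36 for Lachnospiraceae UCG-006 and -0.84 ± 0.36 for Lachnoclostridium (SE, n = 12; each lower in 9 mice; edgeR adjusted p = 0.184 for both). Both passed at day 14 in DESeq2, and Lachnoclostridium also without animal 151. Between day 7 and day 14 the log2 fold changes of the 4 genera lower at day 7 ran from 0.20 in Lachnoclostridium to 0.43 in Ruminococcaceae Incertae Sedis, and each had an edgeR adjusted p of 0.923.

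Marvinbryantia, a genus of Lachnospiraceae known for forming acetate from hydrogen and carbon dioxide, went the other way. Its reads ran from 0 to 0.657% before injury (median 0.0736%, not seen in 3 mice) and from 0 to 0.676% at day 7 (median 0.203%, not seen in 1 mouse). It was higher in 11 of 13 mice, with a log2 fold change of 2.10 ± 0.65 (SE, n = 13; edgeR adjusted p = 0.0401). All 4 of its variants had a log2 fold change above 0, against 131 of 371 over all variants at day 7. At day 14 it was higher in 7 of 12 mice (log2 fold change 0.92 ± 0.66, edgeR adjusted p = 0.518). The day 7 call was kept in 6 of 13 fits without 1 animal, and lost without animal 149, 152, 153, 154, 155, 156 or 162. It was also lost without the animal as a block (log2 fold change 1.44, edgeR adjusted p = 0.349).

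**Figure D2:**
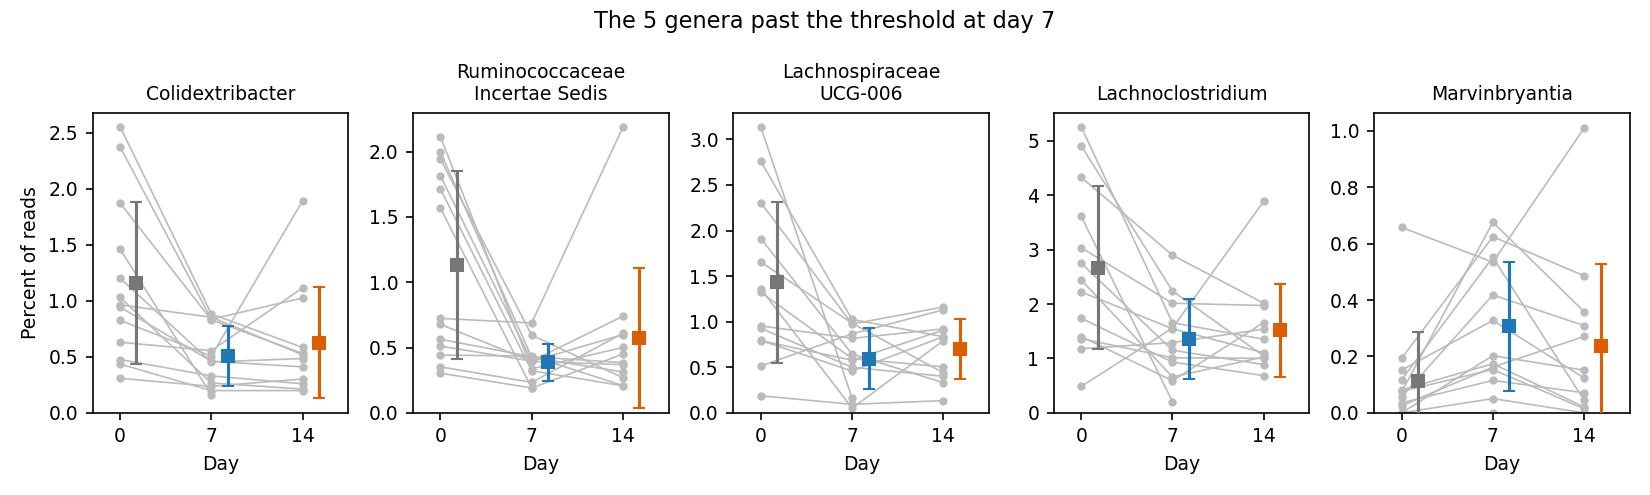
Percent of reads (vertical axis) of the 5 genera past the edgeR threshold at day 7, at day 0, 7 and 14 (horizontal axis). Grey lines join the samples of 1 animal, and squares with bars give the mean ± SD of 13, 13 and 12 animals. Every line of Colidextribacter and of Ruminococcaceae Incertae Sedis falls from day 0 to day 7.

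The other times of the same mice give the levels around day 7. This comparison was added after the data were seen, and since the 5 genera were chosen for their values at day 7, it is a description with no test. The share of Colidextribacter at day 7 minus the mean of days 1 to 3 was -0.539 points ± 0.514 (SD, n = 13; lower in 12 mice). For Ruminococcaceae Incertae Sedis this difference was -0.317 points ± 0.335 (lower in 10 mice), for Lachnospiraceae UCG-006 -0.586 points ± 0.742 (lower in 9 mice) and for Lachnoclostridium -0.831 points ± 1.13 (lower in 10 mice). Marvinbryantia averaged 0.287% at days 1 to 3 and 0.307% at day 7. At day 28 Colidextribacter averaged 0.605%, against 0.505% at day 7, and was higher than at day 7 in 7 of 13 mice. The means at day 28 and day 7 were 0.524% and 0.387% for Ruminococcaceae Incertae Sedis, and 0.787% and 0.596% for Lachnospiraceae UCG-006. They were 1.47% and 1.37% for Lachnoclostridium, and 0.212% and 0.307% for Marvinbryantia.

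**Figure D3:**
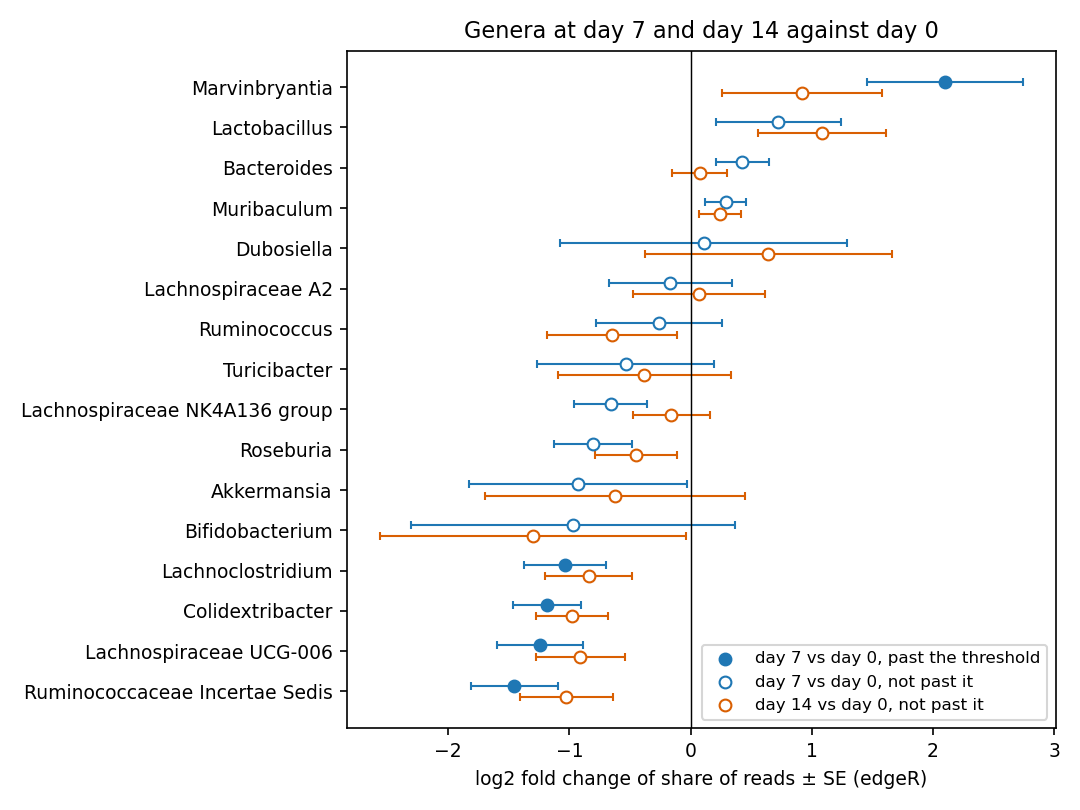
The log2 fold change ± SE (horizontal axis, edgeR) of 16 genera, those that averaged at least 1% of reads over days 0, 7 and 14 or passed the threshold at day 7, and Akkermansia. Blue is day 7 and orange day 14, each against day 0. Filled points are past the threshold: the 4 lower genera and Marvinbryantia, all at day 7. Staphylococcus is left out because its scale differs.

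Of 51 genera, 1 passed at day 14 in edgeR (1.96%). It was Staphylococcus, a facultative anaerobe better known from skin and nasal passages than from the colon. Before injury it was seen in 3 of 13 mice, with 21 reads in all, a median of 0 and a highest share of 0.00745%. At day 7 it was seen in 7 of 13 mice, with 46 reads and a highest share of 0.0171%. At day 14 it was seen in 11 of 12 mice with 10912 reads, from 0 in animal 158 to 5.03% in animal 154 (median 0.312%). It stood above the pre-injury share in 11 of 12 mice. In 9 mice its share at day 14 exceeded the highest share of any animal before injury and at day 7. In the other 3 (animals 151, 155 and 158) it lay within the range of those days. Staphylococcus had reached at most 0.0822% in any mouse at days 1 to 3.

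The mean change from day 0 to day 14 was 0.860 points ± 1.43 (SD, n = 12; edgeR log2 fold change 8.58 ± 1.35, adjusted p = 5.43e-05). Animal 154 alone held 6950 of the 10912 reads, and without it the mean change was 0.480 points ± 0.599 (SD, n = 11). Its size as a fold rests on the few reads of day 0, where 10 columns held none. Day 14 also exceeded day 7, with a log2 fold change of 6.63 ± 1.49 (SE, n = 12; edgeR adjusted p = 0.00751) and a higher share in 10 of 12 mice. By exact permutation of signs on percent of reads this contrast did not pass (adjusted p = 0.149). Since Staphylococcus was chosen for its day 14 values, the remaining times are given with no test. The share at day 14 exceeded the mean of days 1 to 3 in 9 of 12 mice. By day 28 the mean stood at 0.0984% ± 0.119 (SD, n = 13), below day 14 in 8 of 12 mice. At 4 wk it was still seen in 11 of 13 mice.

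Most of this signal was 1 sequence. The genus has 2 variants, and variant 86 (numbered by its row in the count table) held 95% of its reads over days 0, 7 and 14. It was the single variant of 371 tested to pass at day 14 (0.27%), with a share from 0 to 4.74% (median 0.305%) and a log2 fold change of 8.86 ± 1.54 (SE, n = 12; edgeR adjusted p = 0.0014). The family Staphylococcaceae holds only these reads and is the other family called at day 14. The calls of genus, family and variant at day 14 were kept in all 13 fits that left out 1 animal. They were also kept under each other scaling and tool, except that by the exact sign-flip test on percent of reads the variant did not pass (adjusted p = 0.322).

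**Figure D4:**
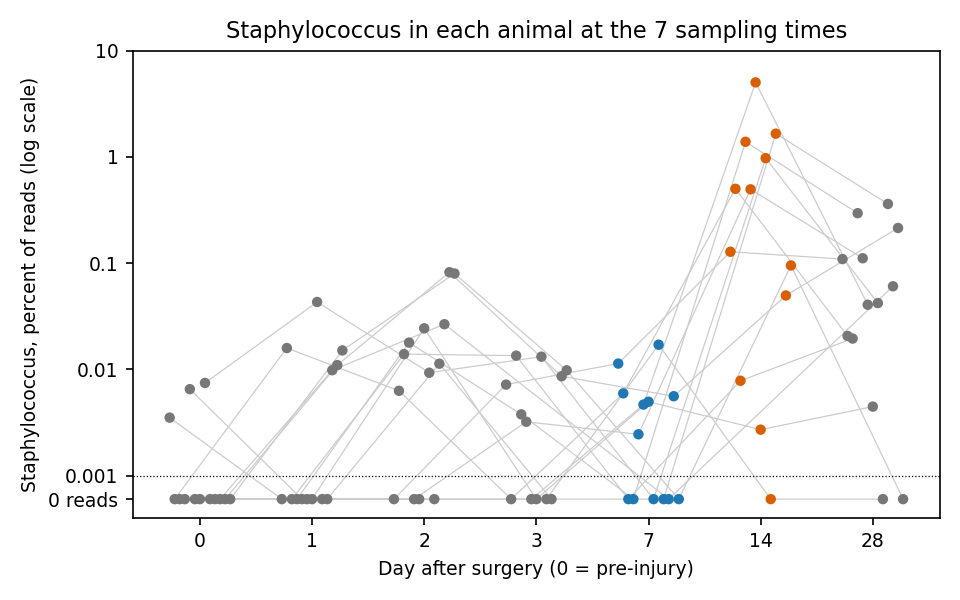
Percent of reads of Staphylococcus (vertical axis, log scale, with columns of 0 reads drawn below the dotted line) in each of 13 animals at the 7 sampling times (horizontal axis). Each point is 1 sample and grey lines join the samples of 1 animal. Orange points (day 14) reach 5.03%, and 9 of 12 lie above every blue (day 7) and day 0 point.

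The list of facultative anaerobes held Staphylococcaceae, Enterococcaceae, Streptococcaceae and Enterobacteriaceae, and variants were named in the first pair only. Enterococcus, a lactic acid bacterium of the gut, was seen in 2 of 13 mice before injury, in 6 of 13 at day 7 and in 8 of 12 at day 14, with a highest share of 0.0956%. Its log2 fold change at day 14 was 3.18 ± 1.31 (SE, n = 12; edgeR adjusted p = 0.184). It passed at day 14 with the columns of all 7 days, and its family there and without animal 155. It was named after its values were seen. The 3 variants named in these families together held 0.00319% ± 0.00526 of reads before injury, 0.00944% ± 0.0111 at day 7 and 0.877% ± 1.46 at day 14 (SD), of which Staphylococcus was 0.861%. Variants named Mitochondria, Chloroplast or Eukaryota, which can carry host or food DNA, held 0.00187% before injury and 0.00758% at day 14. No variant was named Desulfovibrionaceae or Candidatus Arthromitus.

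The other abundant genera did not pass at either time in edgeR with all animals. Lactobacillus, which makes lactic acid, averaged 6.16% ± 6.19 of reads before injury, 8.17% ± 4.69 at day 7 and 10.004% ± 6.06 at day 14 (SD). It was above its pre-injury share in 10 of 13 mice at day 7 and in 10 of 12 at day 14, while in animal 154 it changed by -21.3 and -23.4 points (edgeR adjusted p = 0.467 and 0.259). Without animal 154 Lactobacillus passed at day 14, with a log2 fold change of 1.45 (edgeR adjusted p = 0.0408), and so did its family (edgeR adjusted p = 0.00995). One variant held 98.1% of its reads. Lachnospiraceae NK4A136 group, the largest named genus of its family, averaged 9.71% ± 4.94, 5.84% ± 2.74 and 7.44% ± 2.28. Its log2 fold change was -0.66 ± 0.30 at day 7 (SE, n = 13; lower in 10 mice; edgeR adjusted p = 0.173). It passed at day 7 by exact permutation of signs on percent of reads (adjusted p = 0.0374) and in edgeR without animal 151 (adjusted p = 0.0151). Roseburia, a flagellated butyrate producer, averaged 1.67% ± 1.34, 0.971% ± 0.960 and 1.10% ± 0.985 (edgeR adjusted p = 0.129 at day 7), and passed at day 7 in DESeq2.

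Muribaculum averaged 3.12% ± 0.638, 3.79% ± 0.816 and 3.72% ± 0.623, and Ruminococcus 1.29% ± 0.854, 1.24% ± 1.04 and 0.896% ± 0.689 (SD). The remaining genera varied widely between animals. Turicibacter, a spore former of the Erysipelotrichales, ran from 0.0434% to 20.01% before injury and from 0.0303% to 20.7% at day 7. Its changes at day 7 ran from -15.8 points in animal 151 to 8.92 points in animal 150 (edgeR adjusted p = 0.682). Bifidobacterium, which ferments oligosaccharides to acetate and lactate, ran from 0.00372% to 9.26% before injury and from 0 to 8.35% at day 7. Its mean share was 0.672 points higher at day 7 while the fitted log2 fold change was -0.97 ± 1.33 (SE, n = 13; edgeR adjusted p = 0.682). It was not seen in 2 mice at day 7. Dubosiella averaged 2.20% ± 3.31, 2.83% ± 2.60 and 2.87% ± 2.81, and Lachnospiraceae A2 1.84% ± 2.03, 1.33% ± 1.16 and 1.62% ± 1.38.

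Akkermansia, the mucin degrader that makes up all of Verrucomicrobiota here, is 1 variant. Its share ran from 0.0104% to 10.7% before injury (median 0.524%), from 0.00233% to 5.08% at day 7 (median 0.136%) and from 0 to 3.02% at day 14 (median 0.326%). It was lower than before injury in 8 of 13 mice at day 7 and in 8 of 12 at day 14. The log2 fold changes were -0.93 ± 0.90 (SE, n = 13; edgeR adjusted p = 0.56) and -0.62 ± 1.07 (SE, n = 12; edgeR adjusted p = 0.816). Without 1 animal they ran from -1.22 to -0.49 at day 7 and from -1.19 to -0.065 at day 14. In animal 151 Akkermansia changed by -5.59 points at day 7 and by -10.1 points at day 14, the largest falls, and in animal 161 by 2.71 points at day 14, the largest rise.

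Single variants were tested too. At day 7, 0 of 371 variants passed (0.0%) in edgeR, 27 had an unadjusted p under 0.05 (7.28%; 22 lower, 5.93%, and 5 higher, 1.35%), and DESeq2 called 5. At day 14, 28 had an unadjusted p under 0.05 (7.55%; 21 lower, 5.66%, and 7 higher, 1.89%), and edgeR called 1 and DESeq2 11, of which 9 were lower. Between day 7 and day 14, edgeR called 0 (0.0%), 10 had an unadjusted p under 0.05 (2.7%; 6 lower, 1.62%, and 4 higher, 1.08%), and DESeq2 called 1. The signs of the fitted changes are given by group as counts, with no test, beside those of all variants. Of 180 tested Lachnospiraceae variants, 135 had a log2 fold change below 0 at day 7 and 113 at day 14, with medians of -0.67 and -0.41. Of 76 tested variants of Oscillospiraceae, Ruminococcaceae and Butyricicoccaceae, 62 lay below 0 at day 7 and 56 at day 14, with medians of -1.03 and -0.83. Over all 371 variants 240 lay below 0 at day 7 and 220 at day 14, with medians of -0.46 and -0.31. Of 15 tested Bacteroidales variants 3 lay below 0 at day 7 (median 0.29), of 14 Erysipelotrichales variants 8 did (median -0.42), of 16 Actinobacteriota variants 9 did (median -0.28), and of 3 Lactobacillaceae variants 0 did (median 0.71). In each of these 6 lists 0 variants passed at day 7 or at day 14 in edgeR. TMM scaling moved the log2 fold changes of variants upward by a median of 0.18 at day 7 and 0.12 at day 14. In counts simulated from these columns, edgeR called 7 of 33 variants changed by a log2 of -2 and 6 of 45 by 2. It called 0 of 39 changed by -1, 1 of 38 changed by 1 and 0 of 130 unchanged. DESeq2 called 12 of 33, 17 of 45, 3 of 39, 3 of 38 and 6 of 130 in the same sets. A count of 0 calls in edgeR therefore does not show that no variant changed.

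Whole communities were compared by Bray-Curtis dissimilarity, which is 0 for identical and 1 for wholly different profiles, using all variants. Day 7 differed from day 0 by PERMANOVA with days swapped within animals (R2 6.23%, pseudo-F 1.59, exact permutation test, upper tail, p = 0.00903, adjusted p over 3 comparisons = 0.0271). Without the animal as a block R2 at day 7 was the same, but the permutation test did not pass. Day 14 did not pass against day 0 (R2 5.13%, exact p = 0.0757, adjusted p = 0.114), nor against day 7 (R2 2.24%, exact p = 0.417). By presence or absence of variants (Jaccard) R2 at day 7 was 3.48% (exact p = 0.114). For day 14 the same measure gave R2 of 4.87% (exact p = 0.0405).

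Each sample was also set against its own pre-injury sample. The distance was 0.311 ± 0.105 at day 7 (SD, n = 13), from 0.124 in animal 153 to 0.448 in animal 159. The distance at day 14 was 0.333 ± 0.110 (SD, n = 12), from 0.197 in animal 153 to 0.529 in animal 151. The mean distance to the pre-injury samples of other mice was 0.405 ± 0.0348 and 0.406 ± 0.0478. A mouse was closer to its own than to the average other pre-injury sample in 10 of 13 cases at day 7 and in 9 of 12 at day 14. The samples of day 7 and day 14 of the same mouse lay 0.256 ± 0.0947 apart. Mice differed from each other by a mean of 0.412 before injury, 0.365 at day 7 and 0.370 at day 14. The distance from baseline was 0.0316 ± 0.0582 larger at day 14 than at day 7 (SD, n = 12; larger in 9 mice; p = 0.0874 by exact permutation of signs). The distance at days 7 and 14 minus that at days 1 to 3 was 0.0250 ± 0.108 (n = 13, exact test, p = 0.418), and that at day 28 minus days 7 and 14 was 0.0200 ± 0.0853 (n = 13, exact test, p = 0.411). None of the 3 passed by Bray-Curtis with all animals, but the outcome turned on the distance. By Jaccard the differences were 0.0285, 0.0542 and 0.0357, and all 3 passed before adjustment (exact p = 0.0122, 0.0151 and 0.0286). On square roots of the percentages day 14 minus day 7 was 0.0310 (exact p = 0.0225) and day 28 minus days 7 and 14 was 0.0419 (exact p = 0.0405), while days 7 and 14 minus days 1 to 3 did not pass. By Bray-Curtis without 1 animal, days 7 and 14 minus days 1 to 3 ran from 0.0115 to 0.0438 and day 28 minus days 7 and 14 from 0.00795 to 0.0345. In those fits day 14 minus day 7 ran from 0.0230 to 0.0394, with exact p between 0.0342 and 0.175 before adjustment.

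**Figure D5:**
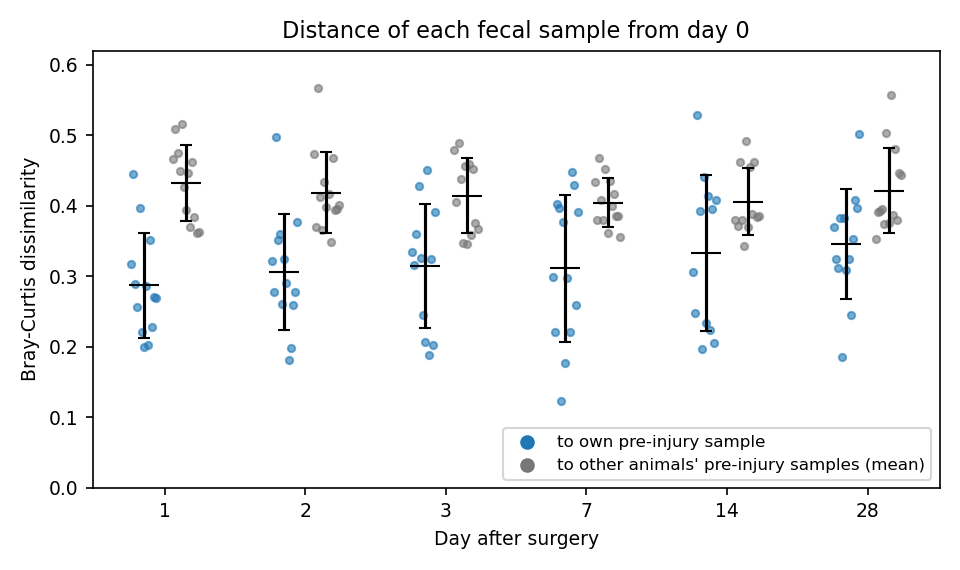
Bray-Curtis dissimilarity (vertical axis) of each fecal sample after surgery to its own pre-injury sample (blue) and, as a mean, to the pre-injury samples of the other animals (grey), by day (horizontal axis). Points are animals and bars give the mean ± SD of 13 animals, or 12 at days 3 and 14. Blue means run from 0.287 at day 1 to 0.346 at day 28, with 0.311 and 0.333 at days 7 and 14.

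Diversity within a sample did not pass a test. The Shannon index at 10000 reads per sample averaged 3.82 ± 0.375 before injury, 3.62 ± 0.243 at day 7 and 3.66 ± 0.294 at day 14 (SD). It was lower in 10 of 13 mice at day 7, with a change of -0.205 ± 0.414 (p = 0.0989 by exact permutation of signs, adjusted over 4 tests 0.396), and without animal 154 the change was -0.272 (exact p = 0.0249). At 2 wk it was lower in 6 of 12 mice (exact p = 0.412). The expected number of variants in 10000 reads averaged 239 ± 46.1 before injury, 220 ± 51.7 at day 7 and 233 ± 34.3 at day 14. The change was -19.0 ± 58.9 at day 7 (n = 13, exact p = 0.270; -25.6 to -9.63 without 1 animal) and -5.96 ± 64.0 at day 14 (n = 12, exact p = 0.75).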

How the data were processed

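Fecal DNA of 13 mice was sequenced for the V3-V4 part of the 16s rRNA gene at 7 times. The authors joined read pairs, inferred variants with DADA2, removed chimeras and assigned names from SILVA, whose release differs between the paper and the record. They deposited read counts per variant and column, without normalization. Each column was placed by the day and animal number in its name. The injury group of an animal number is not stated directly in the sources used here. The count table's 2 columns of animal 160 at days 3 and 14 were not used, since each held fewer than 10000 reads, the depth at which diversity was compared. The paper left out the day 3 and day 14 samples of a single sham mouse for low read counts, but no injury group was inferred from this. The table of cages and extraction batches could not be joined to the columns by name, so those batches were not tested.

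Counts were summed by family and genus and tested with edgeR 4.0.16 (quasi-likelihood, total reads as library size, animal as block) where at least 6 of the 38 columns held 10 reads. Pairing rests on the animal number in the column names. A call is an adjusted p below 0.05. The SE of an edgeR log2 fold change was back-calculated as its size over the square root of the test's F statistic. Percent of reads is the count over the column total. Phyla, diversity and distances were tested by exact permutation within animals. The depth of 13687 to 193669 reads limits rare taxa. Named are all phyla, families and genera averaging at least 1% of reads over days 0, 7 and 14 or past the threshold, Akkermansia, and up to 10 variants per direction and day past the threshold and alike in 3 of 4 animals. Members and lists were chosen with earlier results of these data known. Alternatives were TMM and poscounts factors, DESeq2 1.42.0, no filter, no replicate block, an exact test on percent of reads, all 7 days, other distances and scales, named variants only, and each animal left out. Code was tested on simulated data (Python 3.11.15, R 4.3.3).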

Additional observations from a re-analysis of the deposited data

Results flagged for a closer look

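The change of Staphylococcus from day 0 differed between day 7 and day 14, by the direct test of day 14 against day 7. The log2 fold change of day 14 over day 7 was 6.63 for the genus Staphylococcus (edgeR adjusted p = 0.00751, higher in 10 of 12 mice) and 6.62 for its family, Staphylococcaceae (edgeR adjusted p = 0.00461), which hold the same reads. By exact permutation of signs on percent of reads the same contrast gave adjusted p = 0.149 for the genus and 0.0674 for the family, with a mean difference of 0.857 points ± 1.43 (SD, n = 12). Extraction batch and cage were not joined to the columns, and their part in this result was not tested.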

How the results depend on the processing

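The paired design rests on the animal number, and without it (no replicate block) the day 7 PERMANOVA kept R2 of 6.23% but had permutation p = 0.107, and day 14 had p = 0.261; 2 phylum calls were left, 0 families and 1 genus at day 7 and 1 family at day 14, while the contrast of day 14 with day 7 in variants gained 1 call. By Jaccard, R2 was 3.48% at day 7 and 4.87% at day 14. The distance of day 14 minus day 7 passed on square roots of percent (0.0310) and by Jaccard (0.0285), as did day 28 minus days 7 and 14 (0.0419 and 0.0357) and, by Jaccard, days 7 and 14 minus days 1 to 3 (0.0542). On log2(percent + 0.01), 0 phyla passed. Family calls at day 7 (1 here) were 5 with TMM, 0 with poscounts factors in edgeR, 7 in DESeq2, 4 with all 7 days and 0 by the exact test; genus calls at day 7 (5 here) were 3, 3, 10, 8 and 8. At day 14 the exact test called 1 family and 0 variants. Genus calls at day 14 (1 here) were 2 with poscounts factors, 6 in DESeq2 and 4 with all 7 days. Variant calls at day 7 were 5 in DESeq2, 1 without a filter and 2 with all 7 days; at day 14 they were 11, 3 and 5. Between day 7 and day 14, DESeq2 called 2 families, 2 genera and 1 variant, the exact test 0 families and 0 genera, and variants numbered 1 without a filter and 1 with all 7 days.

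Leaving out 1 animal moved day 14 R2 between 3.93% and 7.25% (exact p = 0.0127 without animal 151 and 0.0439 without 154), the distance of day 14 minus day 7 between 0.0230 and 0.0394, the Shannon change at day 7 between -0.272 and -0.158 and the richness changes at day 7 between -25.6 and -9.63 and at day 14 between -16.4 and 5.07. It left 0 to 4 phylum calls, 0 to 6 family calls (6 without animal 161) and 2 to 7 genus calls at day 7, and 2 to 4 family and 1 to 5 genus calls at day 14, both most without animal 151. Variant calls ran from 0 to 1 at day 7, 1 to 2 at day 14 and 0 to 1 between them, and family calls from 1 to 2 between day 14 and day 7.

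Taxa that were not called changed sign as follows. The Actinobacteriota change at day 14 was -0.14 on log2(percent + 0.01) and -0.284 to 0.804 points without 1 animal, and that of Verrucomicrobiota -1.11 to 0.0591 points. Bifidobacteriaceae and Bifidobacterium had log2 fold changes of 0.25 at day 7 and 0.098 at day 14 without a replicate block, and 0.672 and 0.170 points by percent. Lachnospiraceae A2 at day 7 was 0.078 with TMM, 0.054 with poscounts factors and 0.054 in DESeq2, and at day 14 -0.18 without a replicate block and -0.326 points by percent. Without 1 animal its log2 fold change ran from -0.32 to 0.046 at day 7 and from -0.34 to 0.31 at day 14. Those of Dubosiella ran from -0.34 to 0.53 at day 7, of Bacteroidaceae and Bacteroides from -0.0089 to 0.19 at day 14, and of Erysipelotrichaceae from -0.67 to 0.029 at day 7 and from -0.40 to 0.17 at day 14. The cause of these changes was not tested. Taxa below the 3-read limit of a column could not be measured there.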

Other observations

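Some minor taxa were high in a few mice only, and were chosen after their values were seen. Romboutsia, of the Peptostreptococcaceae, was seen in 6 of 13 mice at day 7, with a highest share of 2.03%, and in 3 of 12 at day 14, with a highest share of 0.134%. Its log2 fold change from day 7 to day 14 was -2.96 ± 1.00 (SE, n = 12; edgeR adjusted p = 0.213), and the family passed in that contrast and at day 14 without animal 159. Coriobacteriaceae UCG-002 reached a highest share of 3.00% at day 7, against a highest share of 0.157% before injury and 0.181% at day 14. Monoglobaceae, pectin degraders, averaged 0.343% ± 0.327 before injury, 0.597% ± 0.544 at day 7 and 0.340% ± 0.297 at day 14 (SD), and were lower at day 14 than at day 7 in 10 of 12 mice (edgeR adjusted p = 0.0925). That contrast passed in DESeq2, and against day 0 the family passed at day 7 with TMM factors, in DESeq2 and with the columns of all 7 days. Anaerotruncus was lower than before injury in 12 of 13 mice at day 7 (log2 fold change -1.32 ± 0.55, SE; edgeR adjusted p = 0.131) and in 10 of 12 at day 14 (log2 fold change -1.19 ± 0.56, SE; edgeR adjusted p = 0.242). It passed at both times in DESeq2 and with the columns of all 7 days, and at day 7 by exact permutation of signs on percent of reads.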
